A study of Homo sapiens with 6 samples.

Results

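F-box proteins are the interchangeable substrate receptors of SCF ubiquitin ligases, and 61 genes of this family were measured here of 19775 genes in all. They were the genes whose symbol in the array's annotation begins with FBXO, FBXL or FBXW followed by a digit, with FBXW11 left out, read by probe sets that name 1 gene, and where a gene had several by the brightest. The naming rule uses no measured difference, but the family was picked with earlier results of these data known. Of the 61, 56 code for protein. The other 5 carry the name without being receptors: FBXL19-AS1 and FBXO38-DT are long noncoding RNAs, and FBXL21P, FBXL9P and FBXW4P1 are pseudogenes.

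In an SCF ligase the scaffold cullin CUL1 carries the RING protein RBX1 at one end and the adaptor SKP1 at the other. The F-box of a receptor docks on SKP1, and the rest of the receptor binds the protein to be ubiquitinated. FBXW proteins bind through WD repeats, FBXL proteins through leucine-rich repeats, and FBXO proteins through other domains. The NEDD8 modifier switches the cullin on, the COP9 signalosome removes it, and CAND1 lets one receptor replace another. The best known targets are cell cycle proteins, transcription factors, clock proteins and the iron regulator IRP2.

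Messenger RNA was measured on 6 Affymetrix HG-U133 Plus 2.0 arrays of cells labelled HepG2, a line established from a human liver tumour. The cells received a negative control siRNA (3 arrays) or an siRNA against RNF43 (3 arrays) in a cationic lipid reagent and were harvested at 48 h. The RNF43 protein, itself a ubiquitin ligase, sits in the cell membrane and restrains Wnt signalling. Each group used 1 siRNA, and the labels call the arrays biological replicates but do not name separate cultures, so the spread behind each p-value may be partly technical.

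The deposited values are log2 MAS5 signals, with medians of 5.89 to 6.02 per array. Differences are given as arrays labelled RNF43 siRNA minus control arrays on the log2 scale. RNF43 itself went against its label. It measured 7.65, 7.79 and 7.45 on the control arrays and 8.19, 8.22 and 8.41 on the arrays labelled RNF43 siRNA, a difference of 0.64 (SE 0.14, limma adjusted p = 0.0098), which fell to 0.48 and did not pass without both arrays numbered 3 (adjusted p = 0.0537). Two-sided exact permutation of the 6 RNF43 values returned p = 0.1, the smallest that 3 against 3 arrays allow. So these arrays, on which RNF43 was read by its single probe set, 218704_at, show no lowering of RNF43 mRNA to which a direction below could be set. Of 8 measured hepatocyte markers, 7 lay below the filter of 5.83 used here, among them ALB at a mean of 4.21 and APOA1 at 5.18, while AFP lay at 6.71. Of 7 fibroblast and stellate cell markers 5 lay above it, with LUM at 13.26. Most of the hepatocyte markers listed were thus dimmer than the median probe set in cells labelled HepG2. Without detection calls, whether they were expressed at all was not settled. The linear signals of the fibroblast and stellate markers summed to log2 13.83 to 13.86 on the control arrays and 13.50 to 13.64 on the arrays labelled RNF43 siRNA. LUM made up most of this sum and was not called (difference -0.18, limma adjusted p = 0.0926). Of the 5 markers above the filter, 3 were called lower, beside 11.1% of all genes tested: ACTA2 (-0.99), COL3A1 (-1.34) and DCN (-0.54). The part of these markers in the results below was not tested. Endothelial markers had 1 of 4 above the filter, and macrophage (4) and lymphocyte (3) markers had 0.

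Of the 61 genes, 46 had a mean log2 signal above 5.83, the median of all probe sets, and were tested. At an adjusted p under 0.05 in limma, 9 of the 46 (19.6%) changed. On the arrays labelled RNF43 siRNA 5 were higher, and 4 were lower. In such bulk RNA, fewer cells of a type and less RNA per cell cannot be told apart. Over all 11853 genes tested the share was 22.6%, with 11.5% higher and 11.1% lower, so the share among F-box genes lay near that background. FBXO45, FBXO5, FBXO41, FBXL14 and FBXW2 rose by 1.24-fold to 1.85-fold. FBXL17, FBXO32 and FBXO25 fell by 1.44-fold to 1.63-fold, and FBXO16 was the 1 member past 2-fold, at 2.22-fold lower. The median difference of the 46 was 0.0049, beside -0.0028 for all genes tested, and the median size of a difference was 0.20 beside 0.19. Control and siRNA values were fully separated in 13 of the 46 (28.3%), against 38.9% of all genes tested. Without RNF43 siRNA replicate 3 the count of risen members was 8, with FBXL18, FBXW4 and FBXW12 added, and 13 members were called in all, of 2445 genes called among 11830 tested under that setting.

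**Figure D1:**
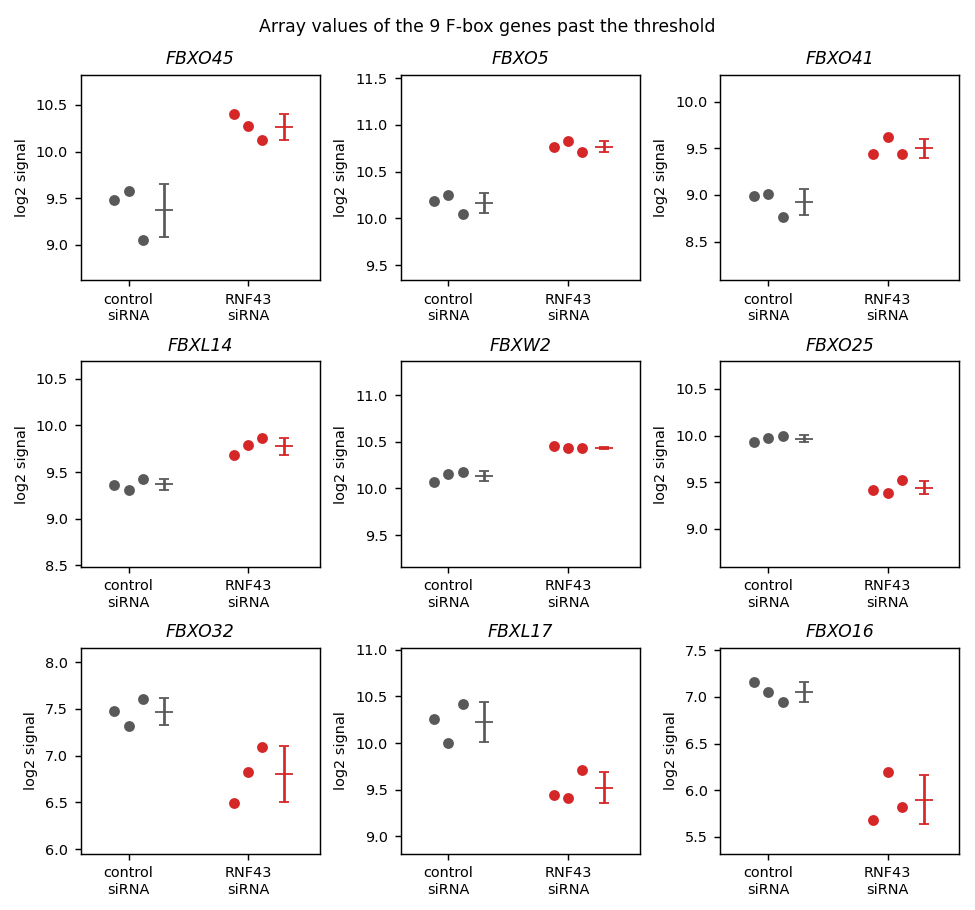
Log2 signal on each of the 6 arrays (points) for the 9 F-box genes that passed the threshold, with the mean and SD of each group of 3 beside them. Every vertical axis spans the same range of log2 units, and in every panel the control points and those of the arrays labelled RNF43 siRNA do not overlap.

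Among the rises, FBXO5 had the smallest p. It encodes EMI1, which holds the anaphase-promoting complex inactive and so lets cells pass through S phase. FBXO5 measured 10.19, 10.25 and 10.05 on the control arrays and 10.76, 10.83 and 10.71 on the arrays labelled RNF43 siRNA. The groups were 0.60 apart (SE 0.08, limma adjusted p = 6.3e-04), a 1.51-fold rise. Its other probe set above the filter, 234863_x_at, also rose, by 0.46.

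FBXO45 showed the largest rise of the 5. Its protein is an atypical receptor that works with the large ligase MYCBP2 in place of CUL1. FBXO45 lay at 9.48, 9.58 and 9.05 on the control arrays and at 10.40, 10.27 and 10.12 on the others. This was a difference of 0.89 (SE 0.14, adjusted p = 0.00127), or 1.85-fold. Of the 2 other FBXO45 probe sets above the filter, 242294_at differed by 0.77 and 225100_at by 0.17, and neither passed. Averaged over its probe sets, the FBXO45 difference was 0.61 and the call was lost (adjusted p = 0.113).

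The start regions of FBXO5 and FBXO45, both higher, are shown beside that of FBXL17, which fell, as the strongest rises and the strongest fall among changed genes read by several probe sets above the filter. Each is the 300-base RefSeq window on GRCh38.p14 that crosses the annotated start, most of it upstream, on the gene's own strand and with every CpG in capitals. FBXO5 has 2 annotated starts, and the upstream window is given, at chr6:152983530-152983829 (minus strand). FBXO45 is at chr3:196568410-196568709 (plus strand) and FBXL17 at chr5:108382049-108382348 (minus strand).
FBXO5: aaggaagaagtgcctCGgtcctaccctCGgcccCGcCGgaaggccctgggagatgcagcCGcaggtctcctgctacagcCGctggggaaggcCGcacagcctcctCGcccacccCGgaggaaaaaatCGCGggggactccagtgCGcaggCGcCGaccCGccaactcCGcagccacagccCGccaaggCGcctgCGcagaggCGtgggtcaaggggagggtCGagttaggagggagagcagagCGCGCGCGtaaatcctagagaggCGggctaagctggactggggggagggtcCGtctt
FBXO45: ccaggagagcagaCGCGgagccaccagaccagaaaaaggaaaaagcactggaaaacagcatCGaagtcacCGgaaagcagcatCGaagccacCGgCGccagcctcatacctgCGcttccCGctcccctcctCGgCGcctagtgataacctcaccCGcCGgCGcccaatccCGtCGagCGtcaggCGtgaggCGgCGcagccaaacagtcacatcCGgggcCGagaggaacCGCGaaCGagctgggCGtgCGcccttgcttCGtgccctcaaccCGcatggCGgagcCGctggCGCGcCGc
FBXL17: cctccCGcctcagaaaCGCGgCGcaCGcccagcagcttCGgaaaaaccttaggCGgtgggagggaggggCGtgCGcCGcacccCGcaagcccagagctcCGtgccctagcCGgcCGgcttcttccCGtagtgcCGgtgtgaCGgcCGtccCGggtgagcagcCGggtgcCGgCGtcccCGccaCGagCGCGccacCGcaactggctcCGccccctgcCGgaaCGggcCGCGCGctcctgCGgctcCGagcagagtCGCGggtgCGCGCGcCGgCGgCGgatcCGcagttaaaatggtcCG
FBXO5 holds 27 CpG in this window, FBXO45 34 and FBXL17 45. Over the 64 windows of the 45 members that matched the RefSeq table, the median was 26.5, beside 25 in windows of tested genes and 14 in all 35116 windows. An E2F-type motif, written as TTTGGCGC, TTTCCCGC, TTTCGCGC or TTTGCCGC, was searched on both strands, and a window counted once however many matches it held, overlapping ones included. It was in 1 of the 64 member windows, that of FBXO44, and in 4.93% of the windows of tested genes and 3.32% of all windows. These letters were in neither FBXO5 window nor in those of FBXO45 and FBXL17.

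FBXO41, a receptor studied mostly in neurons, measured 8.99, 9.01 and 8.76 on control arrays and 9.44, 9.62 and 9.44 on the arrays labelled RNF43 siRNA. The rise was 0.58 (SE 0.11, adjusted p = 0.00356), or 1.49-fold. The other FBXO41 probe set above the filter, 221945_at, differed by 0.32 with overlapping groups and did not pass (adjusted p = 0.455). FBXL14, which directs Snail family transcription factors to the proteasome, went from 9.36, 9.31 and 9.43 to 9.68, 9.79 and 9.86. It rose by 0.42 (SE 0.09, adjusted p = 0.00787), or 1.33-fold, and its 2 other probe sets lay below the filter. On the brightest probe set of both genes the lowest value labelled RNF43 siRNA stood above the highest control value.

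FBXW2, known for targeting the placental transcription factor GCM1, showed the smallest rise. It measured 10.07, 10.15 and 10.18 on control arrays and 10.45, 10.43 and 10.43 on the arrays labelled RNF43 siRNA, a difference of 0.31 (SE 0.08, adjusted p = 0.0142). This rested on 1 probe set, 209630_s_at. The 2 other FBXW2 probe sets above the filter had differences of -0.17 and -0.08 and did not pass. With _x_at and _s_at probe sets dropped, which can match more than 1 transcript, FBXW2 stood at -0.17. The FBXW2 call was also lost without control siRNA replicate 1 (difference 0.27, adjusted p = 0.0677).

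Among the falls, FBXO16 differed most. FBXO16 measured 7.16, 7.05 and 6.94 on the control arrays and 5.68, 6.19 and 5.82 on the arrays labelled RNF43 siRNA. The groups differed by -1.15 (SE 0.25, adjusted p = 0.00779). The mean on the arrays labelled RNF43 siRNA was 5.90, close to the filter, and with 64 added to the linear signal the FBXO16 difference shrank to -0.67. The other probe sets that name FBXO16 together with ZNF395 were not used.

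FBXL17 acts in a quality control that removes wrongly paired BTB proteins. Its brightest probe set read 10.26, 10.00 and 10.42 on control arrays and 9.44, 9.41 and 9.71 on the others, a fall of 0.70 on the log2 scale (SE 0.12, adjusted p = 0.00258). The FBXL17 probe sets disagreed. Of 3 others above the filter, 242034_at differed by -0.52, 244360_at by 0.45 and 238174_at by 0.70, none of them past the threshold, and averaged over its probe sets FBXL17 stood at -0.20 and was not called (adjusted p = 0.506).

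FBXO25 and FBXO32 are close relatives, and FBXO32 encodes atrogin-1, a receptor induced in wasting muscle. FBXO25, read by its single probe set, measured 9.93, 9.97 and 10.00 on control arrays and 9.42, 9.39 and 9.52 on the arrays labelled RNF43 siRNA. It fell by 0.52 on the log2 scale (SE 0.08, adjusted p = 0.00155), and its call held in all 16 refits. FBXO32 measured 7.48, 7.32 and 7.61 against 6.49, 6.82 and 7.09. The FBXO32 difference of -0.68 (SE 0.21, adjusted p = 0.0387) was the least secure of the 9. Its call did not survive removal of any control array (adjusted p 0.0638 to 0.102, differences -0.75 to -0.61) or of RNF43 siRNA replicate 1 (-0.52, adjusted p = 0.112) or 2 (-0.69, adjusted p = 0.0921), and with no filter on low values (0.0943). The other FBXO32 probe set above the filter differed by -0.76 and did not pass.

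Of the 4 genes that fell, 3 (FBXO16, FBXO25 and FBXO32) lie on chromosome 8, a feature noticed after the values were seen. All 5 members tested there are FBXL6, FBXO16, FBXO25, FBXO32 and FBXO43, and the differences of the other two were 0.06 for FBXL6 and -0.25 for FBXO43. Of all 428 tested genes on chromosome 8, 46 (10.7%) were lower and 66 higher, beside 11.1% lower over all genes tested.

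**Figure D2:**
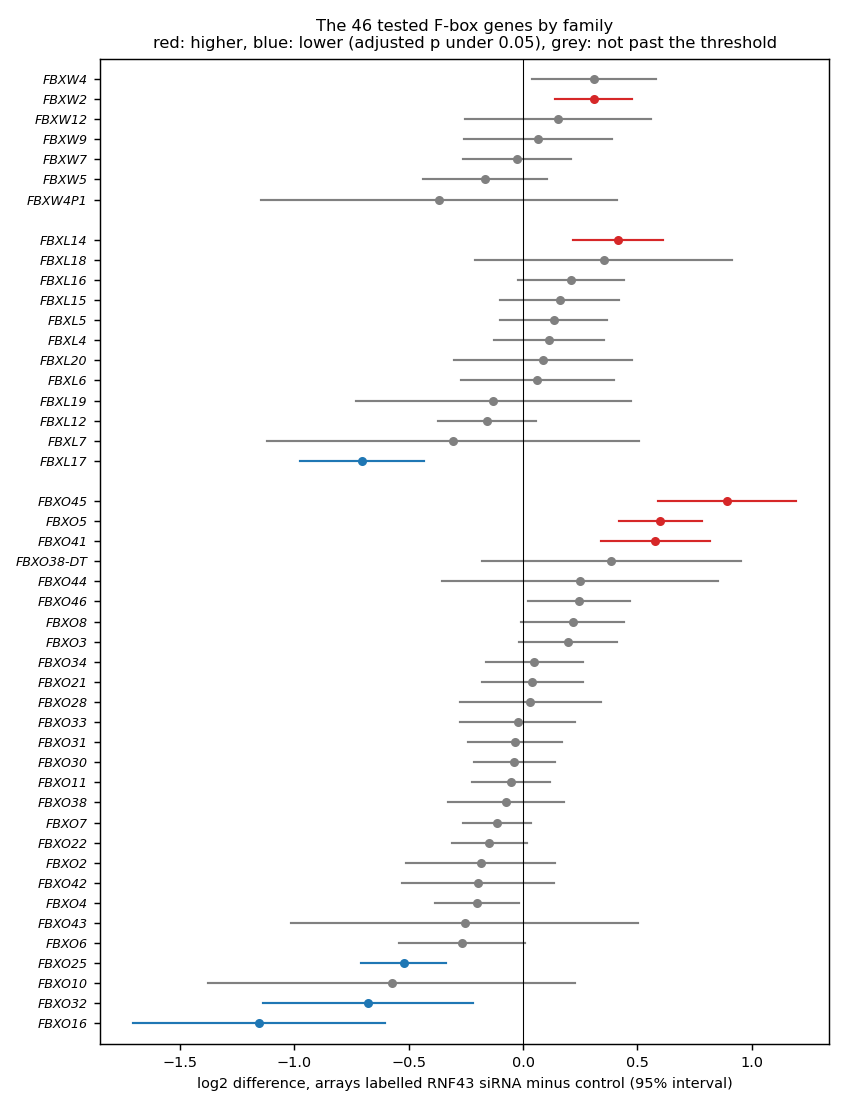
Log2 difference, arrays labelled RNF43 siRNA minus control, for each of the 46 tested F-box genes with its 95% confidence interval from limma, ordered by difference within FBXW, FBXL and FBXO genes. The 5 red intervals lie wholly above 0, the 4 blue ones wholly below, and most grey intervals cross it.

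The other 37 tested members did not pass, with differences from -0.57 for FBXO10 to 0.39 for FBXO38-DT. For 24 of the 37 the whole 95% interval lay within 0.5 of 0, and for the other 13 a change of that size was within the interval. Precision followed signal. The median SE was 0.10 for the 26 tested members with a mean log2 of at least 9 and 0.34 for the 7 with a mean under 7. By family, 1 of 7 tested FBXW genes, 2 of 12 FBXL genes and 6 of 27 FBXO genes changed. No difference between the families was tested.

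Among FBXW genes that did not pass, FBXW7 is the receptor for cyclin E, MYC and Notch. It measured 8.89, 8.92 and 8.94 on control arrays and 8.92, 9.02 and 8.74 on the arrays labelled RNF43 siRNA. The FBXW7 values of the groups overlapped, with a difference of -0.03 and a 95% interval of -0.26 to 0.21. Its other probe sets above the filter differed by -0.16, -0.35 and 0.11, and none passed. FBXW4 differed by 0.31 (adjusted p = 0.0978) and passed without RNF43 siRNA replicate 3 (0.41, adjusted p = 0.0404). FBXW12 differed by 0.15 and also passed without that array (0.41, adjusted p = 0.0268). It was read by an _x_at probe set, 215600_x_at, and its other probe set, 1564138_at, lay below the filter. Over the refits the FBXW12 difference ran from -0.32 to 0.41. FBXW5 and FBXW9 stood at -0.17 and 0.07, and the pseudogene FBXW4P1 at -0.37.

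The role lists below hold 3 to 9 tested genes each, too few to set a share apart from the 22.6% called over all genes. Of the genes tied to the cell cycle, 1 of 7 tested changed, FBXO5. FBXO4, which targets cyclin D1, came next. FBXO4 measured 11.45, 11.47 and 11.57 on control arrays and 11.19, 11.24 and 11.45 on the others, a difference of -0.20 (adjusted p = 0.114) that passed without RNF43 siRNA replicate 3 (-0.28, adjusted p = 0.0276). FBXO31, a second cyclin D1 receptor, differed by -0.04, FBXL12 by -0.16 and FBXO7, mutated in a form of parkinsonism, by -0.11. The groups of FBXO7 did not overlap, yet it did not pass.

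The sugar-binding receptors FBXO2, FBXO6, FBXO17, FBXO27 and FBXO44 recognise N-glycans on misfolded glycoproteins. Of the 3 that could be tested 0 passed in limma, and 0 had an unadjusted p under 0.05. FBXO6 came nearest, at 8.44, 8.48 and 8.53 on control arrays against 8.32, 8.30 and 8.03, groups that did not overlap, with a difference of -0.27 (adjusted p = 0.16). FBXO2 measured 8.79, 8.39 and 8.51 against 8.30, 8.60 and 8.22, a difference of -0.19 within overlapping groups. FBXO44 measured 6.88, 6.82 and 6.39 against 7.15, 6.42 and 7.26, a difference of 0.25, also with overlap. FBXO2, FBXO44 and FBXO6 are neighbours on chromosome 1, the start windows of FBXO2 and FBXO44 overlap head to head, and the annotation gives the FBXO44 probe set the same accession as FBXO2, so which transcript it reads is uncertain. FBXO17 and FBXO27 lay below the filter.

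Of the receptors for clock, iron and metabolic control, FBXO32 was the 1 called of 4 tested. FBXL5, the iron-sensing receptor of IRP2, measured 10.65, 10.72 and 11.00 against 10.78, 10.93 and 11.06, overlapping groups with a difference of 0.13 (95% interval -0.10 to 0.37). Its other probe set above the filter, 209005_at, differed by 0.27 with groups that did not overlap, and did not pass (adjusted p = 0.150). FBXL4, a mitochondrial F-box protein mutated in mitochondrial DNA depletion, differed by 0.11 on its brightest probe set. Of the 9 tested receptors listed for transcription factors and the p53 axis, 3 changed, FBXO45 and FBXL14 higher and FBXL17 lower, again beside 22.6% over all genes. FBXO11, the receptor of BCL6, differed by -0.05, FBXO42, which targets p53, by -0.20, FBXO38 by -0.08 and FBXO28 by 0.03. The other FBXO28 probe sets above the filter differed by 0.05, 0.21 and 0.39, and none passed.

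The remaining FBXL genes included FBXL16 at 0.21, which passed without RNF43 siRNA replicate 2 (0.33, adjusted p = 0.0341), and FBXL18 at 0.35, which passed without RNF43 siRNA replicate 3 (0.65, adjusted p = 0.0454). FBXL15 differed by 0.16, FBXL20 by 0.09, FBXL19 by -0.13 and FBXL7 by -0.31. Of the FBXO genes, FBXO46 differed by 0.24 with groups that did not overlap. FBXO8, which also carries a Sec7 domain, stood at 0.22, FBXO34 at 0.05, FBXO21 at 0.04, FBXO33 at -0.02 and FBXO30 at -0.04.

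For some members the call depended on the probe set. Of 145 probe sets that name a member alone, 89 lay above the filter, and 15 of these were called when each probe set was tested on its own, beside 17.7% of all 22660 such probe sets. Of these 15, 6 were not the brightest of their gene. Of 24 members with at least 2 probe sets above the filter, 9 had differences of both signs, and 0 had calls in both directions. The share of all genes with differences of both signs was not computed. Members were counted as changed from the brightest probe set alone.

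FBXO22, a receptor that targets the demethylase KDM4A, is an example. Its brightest probe set, 225736_at, read 11.09, 11.13 and 11.13 on control arrays and 11.04, 10.86 and 11.00 on the arrays labelled RNF43 siRNA. These groups did not overlap, and the FBXO22 difference of -0.15 did not pass (adjusted p = 0.185). Of the dimmer ones above the filter, 225734_at (-0.28, adjusted p = 0.0387) and 219638_at (-0.91, adjusted p = 0.0341) were called lower. The others, 225737_s_at (-0.27, adjusted p = 0.114) and 1559214_at (0.03, adjusted p = 0.907), were not called. The FBXO22 225734_at call did not survive removal of any control array, or of RNF43 siRNA replicate 1 or 2 (differences -0.31 to -0.23, adjusted p 0.0782 to 0.131). The FBXO22 219638_at call needed control siRNA replicates 2 and 3 and RNF43 siRNA replicates 1 and 2, and was lost when any of them was removed (-0.99 to -0.73, adjusted p 0.069 to 0.107).

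Further members rose on a dimmer probe set alone. FBXL4 235450_at read 6.86, 6.40 and 6.70 on control arrays and 7.46, 7.67 and 7.28 on the others, a difference of 0.82 (adjusted p = 0.0226). FBXO30 242007_at read 7.18, 7.09 and 6.88 against 7.62, 7.87 and 7.71, a difference of 0.68 (adjusted p = 0.0209). FBXO3 238686_at read 9.49, 9.43 and 9.57 against 9.69, 9.89 and 9.89, a difference of 0.33 (adjusted p = 0.0423). For all 3 of these probe sets the groups did not overlap. The FBXL4 call did not hold without control siRNA replicate 2 (0.69) or RNF43 siRNA replicate 1 (0.82) or 2 (0.72), the FBXO30 call without control siRNA replicate 2 (0.70) or RNF43 siRNA replicate 2 (0.61), and the FBXO3 call without control siRNA replicate 1 (0.32) or 2 (0.29) or RNF43 siRNA replicate 2 (0.29) or 3 (0.29). The second FBXO5 probe set kept its direction, but its call did not hold without control siRNA replicate 1 (0.42) or 2 (0.48) or RNF43 siRNA replicate 1 (0.38) or 2 (0.44).

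**Figure D3:**
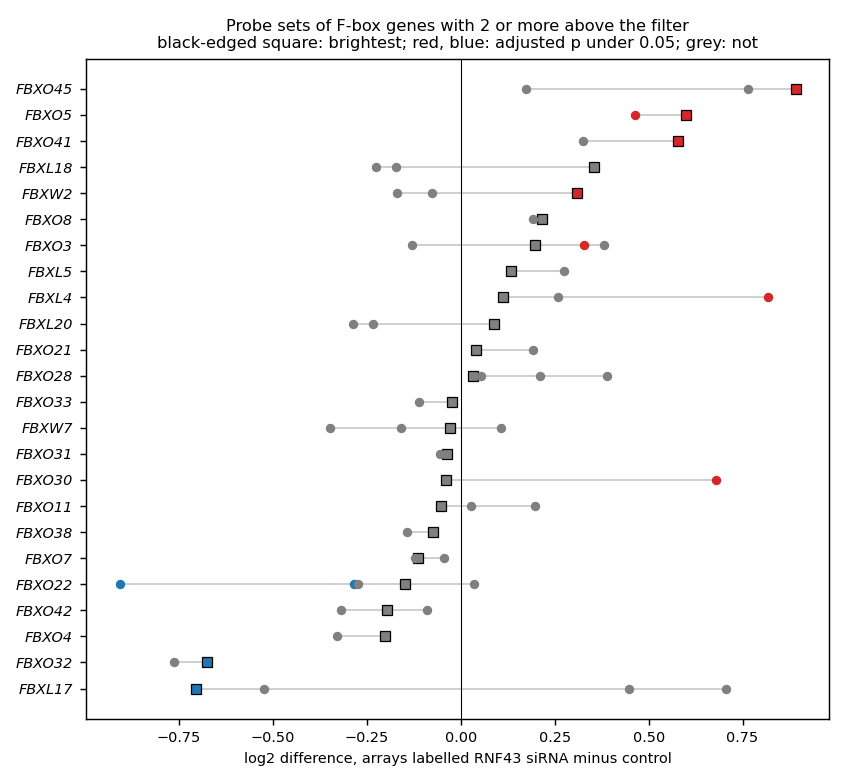
Log2 difference of every probe set above the filter for the 24 F-box genes that have at least 2, with the brightest as a black-edged square and the probe sets of a gene joined by a line. FBXL17 spans from -0.70 to 0.70, FBXO22 from -0.91 to 0.03, and FBXO5 has both of its probe sets called higher.

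The other 15 members lay below the filter and were not tested: FBXL8, FBXL13, FBXL19-AS1, FBXL21P, FBXL22, FBXL9P, FBXO15, FBXO17, FBXO24, FBXO27, FBXO36, FBXO39, FBXO40, FBXW8 and FBXW10B. Their mean log2 signals ran from 2.17 for FBXL22 to 5.67 for FBXW8, which was nearest the filter, while FBXL7 at 6.19 was the lowest tested. In 0 of the 15 were the groups separated. FBXO40 is a muscle gene, and FBXW8 forms a ligase with CUL7. FBXW10 was read only with FBXW10B on a shared probe set and was not used.

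F-box genes with other names were set beside them. Of 10 tested, 2 rose and 2 fell, beside 22.6% called over all genes. KDM2A and KDM2B, histone H3K36 demethylases with an F-box, fell by 0.96 and 0.69 on the log2 scale (limma adjusted p = 6.7e-05 and 7.3e-04). SKP2, the receptor of p27, rose by 0.36 (adjusted p = 0.00251). BTRC, the receptor of beta-catenin, was 0.69 higher on its brightest probe set (adjusted p = 0.00296), and stood at -0.03 with _x_at and _s_at probe sets dropped. FBXW11, its paralogue, measured 10.67, 10.71 and 10.69 against 11.01, 10.92 and 10.80, groups 0.22 apart that did not overlap and did not pass (adjusted p = 0.0653).

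In the machinery that receptors share, the count of called genes moved with the arrays used, as did the count over all genes. Of 31 tested genes of the SCF core, the NEDD8 cycle and the COP9 signalosome, 1 rose and 2 fell (9.68%, beside 22.6% of all genes), while control and siRNA values were fully separated in 13 (41.9%, beside 38.9%). SKP1 measured 14.72, 14.72 and 14.85 on control arrays and 14.77, 14.72 and 14.81 on the others, with overlap and a difference of 0.0026. CUL1 differed by 0.11 and RBX1 by 0.30, neither past the threshold. GLMN, which binds RBX1 and blocks it, rose by 0.29 (adjusted p = 0.0312). DCUN1D3, a factor of cullin neddylation, fell by 0.61 on the log2 scale (adjusted p = 0.00269), and COPS8, a COP9 subunit, by 0.26 (adjusted p = 0.049). Without control siRNA replicate 1 or 2 or RNF43 siRNA replicate 1 or 2 the count of the 31 was 1. Without control siRNA replicate 3 or RNF43 siRNA replicate 3 it was 4, and without both it was 7, when 2992 of 11824 genes were called in all. The GLMN call was lost when control siRNA replicate 1 or 2, or any RNF43 siRNA replicate, was removed (differences 0.22 to 0.31, adjusted p 0.0615 to 0.132). The COPS8 call was lost when any control array, or RNF43 siRNA replicate 1 or 2, was removed (-0.29 to -0.22, adjusted p 0.0865 to 0.167). Averaged over its probe sets, COPS8 stood at -0.04.

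Genes of proteins known as F-box ligase substrates were also listed, as mRNA levels that say nothing of protein turnover. Of 27 tested, 12 rose and 1 fell (48.1% called, beside 22.6% of all genes, of which 11.5% higher and 11.1% lower), with a median difference of 0.24. The list is weighted to G1/S genes, holds FBXO5 itself and was chosen with earlier results of these data known. Its share is therefore a description and no test of substrates as a class. CCNE2, a cyclin E, rose by 1.42, CDKN1C, the cell cycle inhibitor p57, by 0.81, and CCND1, cyclin D1, by 0.93 (limma adjusted p = 4.3e-05, 4.3e-05 and 7.4e-05). The CCND1 call was lost when its probe sets were averaged (0.61, adjusted p = 0.0506). ATF4 was the gene that fell, by 0.44 on the log2 scale.

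**Figure D4:**
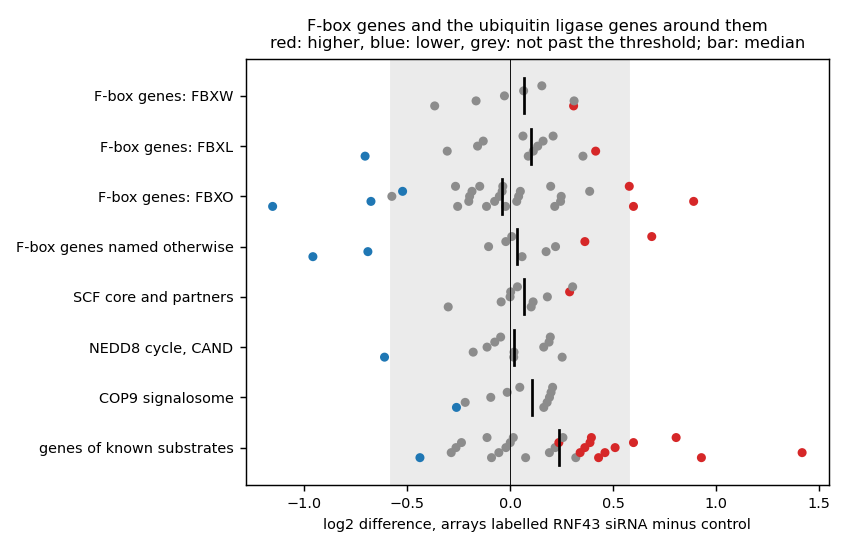
Log2 difference of each tested gene (points) in the 3 families of F-box genes and in 5 lists of related genes, with a bar at each median and a grey band from the 5th to the 95th percentile of all 11853 tested genes (-0.58 to 0.58). The medians of the F-box families lie near 0, at 0.07 for FBXW, 0.10 for FBXL and -0.04 for FBXO.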

How the data were processed

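Values were the deposited log2 signals. The authors made them with MAS5, per the submitters' processing notes. Version, scaling target and detection calls: not given in the sources used here. Linear means trimmed by 2% at each end were 497.03 to 497.23 on all arrays, so the arrays had been scaled, which hides a shift common to all transcripts. MAS5 subtracts mismatch signal, so dim probe sets vary more. Each array had 391 to 628 values at 0. For RNA, 6 µg was labelled per array, per the labels.

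Arrays were grouped by title. Of 54613 probe sets, 41091 named 1 gene in the platform annotation, and symbols were updated to RefSeq (GRCh38.p14), which changed 0 member symbols. A gene was read by its brightest probe set and tested above the median probe set mean (log2 5.83). The test was limma 3.58.1 (R 4.3.3; lmFit, then eBayes with an intensity trend), two-sided, Benjamini-Hochberg over 11853 genes, threshold 0.05. The steps were tested on simulated data. Numbers of arrays, 3 per group, limit the precision.

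Members, lists and tests were chosen with earlier results of these data known. Named genes were RNF43, every member called, the sugar-binding receptors, the 2 members with the smallest p in each other role list (the chromatin list held FBXL19 alone, with KDM2A, KDM2B and FBH1), and up to 3 called genes per related list. Other names, the probe sets, the chromosome and the motif were chosen after values were seen. Alternatives covered normalization, added signal, filter, variance model, probe set choice, replicate block, threshold, membership and left-out arrays. The probe-set fit and the count over protein-coding members were added after seeing the data.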

Additional observations from a re-analysis of the deposited data

How the results depend on the processing

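Of the 9 changed members, 5 (FBXO5, FBXO25, FBXO41, FBXO16 and FBXL14) kept their call and direction in all refits in which they were tested, and 31 of the 37 others were called in 0. FBXO25 and FBXO41 were tested in 16 refits, and FBXO5, FBXO16 and FBXL14 in 15. Both FBXO5 probe sets are of the _s_at or _x_at type, so FBXO5 was not tested with those types dropped. FBXO16 was not tested with the upper 30% of probe sets, nor FBXL14 with probe sets averaged. With probe sets averaged per gene, 4 of 41 tested members changed (9.76%), with 2 higher and 2 lower, beside 1587 of 10605 genes in all (15%). With _x_at and _s_at probe sets dropped, 3 of 39 tested members were higher and 6 changed in all, beside 2044 of 9200 genes. With the upper 30% of probe sets, 2 of 33 tested members were lower and 7 changed in all, beside 2545 of 8817 genes. Leaving out 1 array gave 4 to 8 members higher, 1741 to 2656 changed genes in all, and 1 to 4 changed genes of the SCF, NEDD8 and COP9 lists. For those lists the count was 1 with no intensity trend, beside 2142 of all genes. It was 7 with both arrays numbered 3 left out, beside 2992 of all genes, and RNF43 then stood at 0.48. The median difference of tested members moved to 0.039 with each array centred on its median, -0.032 with probe sets averaged and 0.049 with _x_at and _s_at probe sets dropped. Under these last 2 settings FBXW2 turned to -0.044 and -0.17, and BTRC to -0.31 and -0.029. The replicate block gave 13 changed members, 8 of them higher, and 10 genes of the SCF, NEDD8 and COP9 lists, while the count over all genes rose from 2684 to 3908 of 11853. Deviations of same-numbered arrays correlated at 0.162, 0.0772 and 0.268, and those of differently numbered arrays at -0.211 to 0.0859. Control replicate 2 correlated slightly better with RNF43 siRNA replicate 1 (0.0859) than with replicate 2. The labels state no pairs and the main test took none, a choice that these correlations do not settle. At an adjusted p under 0.01 the count of changed members was 7 of 46, and the count over all genes was not taken there. With protein-coding members alone it was 9 of 44 tested (20.5%), beside 22.6% of all genes. Dim members (mean log2 under 7) had a median SE of 0.34, which limits what could be called there.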
